A study of Drosophila melanogaster with 6 samples.

Results

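Peaks of m6A-CLIP in fly heads were sorted by how many protein-coding genes they lie in, and the 2304 peaks, of 28206 in all, whose midpoint falls in the spans of 2 or more genes are described here. A gene's span runs from its first to its last annotated base, introns included, in the RefSeq table of the Drosophila melanogaster Release 6 (dm6) assembly. Membership was set by position alone and used no read count. The 2304 peaks come from 3 deposited lists, with 1197 peaks in replicate 1, 558 in replicate 2 and 549 in replicate 3. Peaks in exactly 1 span numbered 12742, 6024 and 5530 in replicates 1, 2 and 3, and 390, 650 and 566 peaks lay in no protein-coding span.

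The study set 3 m6A-CLIP libraries beside 3 input libraries, and each list joins the CLIP and input library of 1 replicate number. All 6 libraries were made from heads of male and female w1118cs flies on a standard diet, with poly(A)-selected RNA of about 800 heads going into each CLIP replicate, so a list averages over many animals. In m6A-CLIP, RNA is fragmented, bound by an antibody against N6-methyladenosine (m6A), crosslinked to it by ultraviolet light and recovered with it, while the input is the same kind of RNA without that step. No other genotype, diet or treatment is part of these lists. The labels give neurons as the cell type of whole heads. Peaks were present in all 3 lists for 5 of 6 neuronal markers, 4 of 5 glial, 5 of 5 photoreceptor, 4 of 5 muscle and 4 of 5 fat body markers. Each of these types thus has marker genes with peaks. Of 12058 protein-coding genes with a stretch in no other gene's span, 13.5% had a peak there in all 3 lists. All peaks of the neuronal marker Syx1A also lie in the span of eIF4EHP. Library totals were not analysed here, and read values are not scaled to depth. All comparisons between classes of peaks were therefore made within a list, and fewer cells of a type cannot be told apart from less RNA per cell.

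m6A is a methyl mark that a nuclear enzyme complex places on messenger RNA while it is being transcribed, and that reader proteins recognise. Fly genes often lie inside the introns of other genes, share an end with a neighbour, or are read from 1 messenger that codes for several proteins. In such places a position on the chromosome does not name a gene. The strand of a peak can separate genes that are read in opposite directions, but not genes read in the same direction. The gene table gives neither strand nor exons, so a gene's strand was taken from its own peaks outside all other spans, where it had at least 3 of them and at least 90% lay on 1 strand. That rule gave a strand for 2043 of 2243 genes with 3 or more such peaks.

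Overlapping spans made up a steady share of each list. They held 8.35% of the peaks in replicate 1 (95% Wilson interval 7.91 to 8.82%), 7.72% in replicate 2 (7.12 to 8.35%) and 8.26% in replicate 3 (7.62 to 8.95%), a mean of 8.11% ± 0.345 (SD, n = 3). Wilson intervals in this section treat peaks as independent and cover counting error only, although neighbouring peaks often share a transcript. The 3 intervals overlap. On the 6 chromosome arms, 5.85 Mb lie in 2 or more spans and 84.1 Mb in exactly 1, so 6.51% of the annotated territory is shared. Peak density was 205, 95.4 and 93.8 peaks per Mb of shared territory in replicates 1, 2 and 3, against 152, 71.6 and 65.8 per Mb in exactly 1 span. The ratio of the densities was above 1 in each list, with a mean of 1.37 ± 0.0506 (SD, n = 3). Spans were not split into exons and introns, so the part of exon content in that ratio was not tested. Most members, 1104, 487 and 503 in replicates 1, 2 and 3, lay in exactly 2 spans, and 83, 63 and 39 lay in 3.

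Read levels of the overlap peaks lay close to those of single-gene peaks. The median overlap peak had 9, 34.8 and 10 CLIP reads per bin of 50 bp in replicates 1, 2 and 3, against 10, 38 and 10 in single-gene peaks. Its median input was 9, 15 and 15 reads per bin, against 8, 11 and 12 in single-gene peaks. CLIP reads were thus lower or level in overlap peaks, while input reads were higher in all 3 lists. Called peaks had at least 7, 25 and 7 CLIP reads per bin in replicates 1, 2 and 3. The CLIP medians of both classes lie near that floor, which limits how far they can differ. The CLIP to input ratio is given on a log2 scale, with a pseudocount of 1 added to both read values. Its median was 0.00, 1.15 and −0.63 in overlap peaks, against 0.18, 1.69 and −0.25 in single-gene peaks. The class difference of the log2 ratio was −0.18, −0.54 and −0.38, a mean of −0.36 ± 0.18 (SD, n = 3; exact two-sided sign-flip permutation test p = 0.25, Benjamini-Hochberg adjusted 0.375 over 9 comparisons). With 3 lists 0.25 is the smallest p this test can give, so no comparison between classes could pass a threshold of 0.05. The difference in log2 input reads was 0.29 ± 0.13 and positive in 3 of 3 lists (exact permutation p = 0.25, adjusted 0.375). The difference in log2 CLIP reads was −0.09 ± 0.08 (exact permutation p = 0.5, adjusted 0.643). When each list was reduced to its 50% of peaks ranked best by the authors' p-value, the input difference was 0.05, with p = 0.75 in the same exact permutation test.

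**Figure D1:**
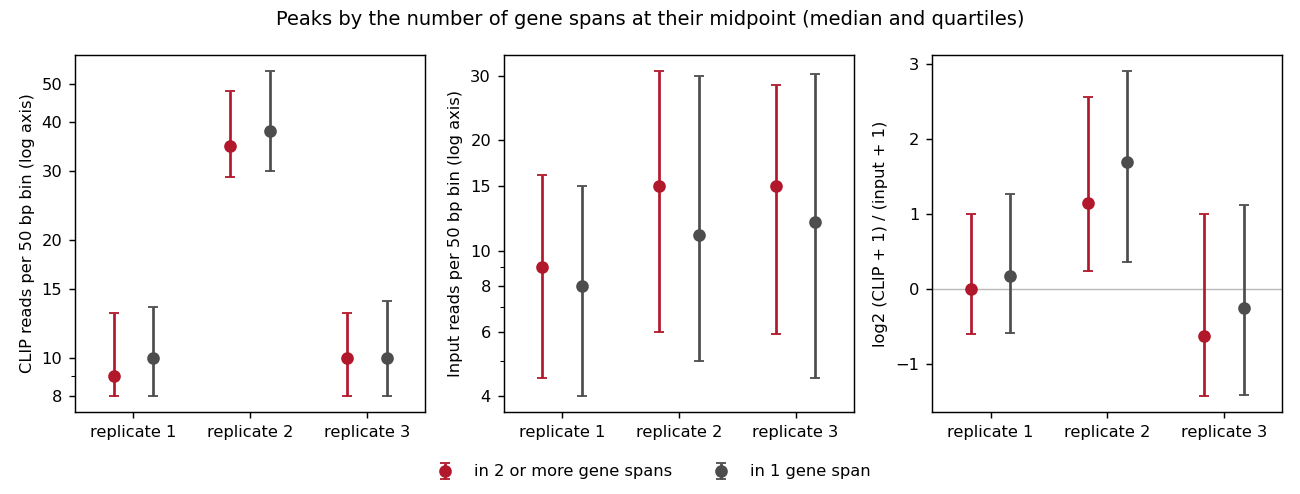
CLIP reads per bin (left, log axis), input reads per bin (middle, log axis) and log2 CLIP to input ratio (right) in each list, for peaks in 2 or more gene spans (red) and in 1 gene span (grey). Points are medians and bars run from the first to the third quartile. The red median of the ratio lies below the grey one in each replicate, well within the quartiles of both classes.

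Many peaks of both classes returned in the other lists. A peak was counted as recurrent when it shared at least 1 bp on the same strand with a peak of each other list. Of the overlap peaks 21.5%, 52.2% and 59.9% were recurrent in replicates 1, 2 and 3, against 23.2%, 54.2% and 64% of single-gene peaks. The lists held 14329, 7232 and 6645 peaks, and shorter partner lists limit the share in a longer list. Shares were therefore compared between classes within a list. Overlap peaks were lower in each list, with a mean difference of −2.59 ± 1.29 percentage points (SD, n = 3; exact permutation p = 0.25, adjusted 0.375). Without the Ank2 locus the difference was −2.02, 0.68 and −4.53 points, so overlap peaks were then higher in replicate 2 (mean −1.96 ± 2.61, exact permutation p = 0.5). With replicate 2 left out the difference was −0.31 points and with replicate 3 left out −0.52 points, and a recurrent peak then needed a partner in the 1 other remaining list. Peaks with fewer CLIP than input reads were more frequent among overlap peaks by 4.81 ± 3.05 points (exact permutation p = 0.25, adjusted 0.375). Peaks on an annotated non-coding gene averaged 3.16% of overlap peaks and 4.68% of single-gene peaks, lower in overlap peaks in 3 of 3 lists (exact permutation p = 0.25, adjusted 0.375). On the plus strand lay 44.0%, 43.5% and 43.9% of overlap peaks, against 50.6%, 52.8% and 52.1% of single-gene peaks. The Ank2 locus alone held 43, 51 and 21 of the overlap peaks, all on the minus strand. The plus-strand shares were not recomputed without it, so its part in them was not tested.

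Gene pairs with a peak in both spans in every list numbered 180 of 3343 overlapping pairs with at least 1 bin midpoint in the overlap, which is 5.38%. A further 90 pairs had such peaks in 2 lists and 213 in 1 list. For comparison, 13.5% of 12058 protein-coding genes with a bin in no other span had a peak there in all 3 lists. Pairs and genes differ in the length that can hold a peak, so the 2 shares stand side by side without a test. Pairs with the same start and end were in all 3 lists in 14.8% of 182 cases, nested pairs in 7.2% of 1639 and partly overlapping pairs in 2.3% of 1522. The median overlap was 2482.5 bp for same-span pairs, 1409 bp for nested pairs and 90 bp for partial pairs, in the same order as those shares. The 180 pairs hold 305 genes at 144 loci, of which 131 have 2 genes and 13 have 3 or more.

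Genes with identical spans gave 17 loci of 2 genes. In the fly such entries often stand for 1 messenger that codes for 2 proteins. The named couples were Pif1A and Pif1B, stnA and stnB, CG15465 and rg, CG43739 and sky, CG46319 and gem, CG46315 and CG6424, CG45087 and Pepck1, CG45092 and chk, and CG43954 and Lasp. The others were fabp and sea, Hyls1 and chif, CG7215 and Prx5, CG17325 and CG42305, CG10570 and CG42502, CG45089 and ND-MNLL, CG42497 and Tim10, and CG46523 and CG5687. A shared region, a stretch called in all 3 lists on 1 strand, was found at 16 of these 17 loci.

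Loci of 3 or more genes numbered 13. They were Ank2 with CG32373 and CG44195, CG15221 with inaF-A to inaF-D, Adh with Adhr and osp, CG42784 with CG43850 and CG46308, and CG12158 with CG13739 and CG13954. Also among them were CG45076 with CG45078 and fau, CG18675 with Teh2 and tipE, CG33995 with CG44000 and CG44001, and solo with vas and vig. The last were CG14933, CG42486 and CG46426 with Pde1c, the tal peptide genes tal-1A, tal-2A, tal-3A and tal-AA, Actn with CG4313 and usp, and CG33111 and CG34355 with eIF4G2.

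Partly overlapping spans gave 26 loci of 2 genes. They were Ant2/sesB, CG9967/eys, ras/stx, CG9674/nudC, f-cup/ninaB, sn/sws, CG43783/orb2, CG7367/Cka, Adat1/CAH1, CG8036/p, Not1/Nt5c, Trf2/lawc and BicD/Sgt. The rest were CG7370/Syn1, ND-MWFE/TppII, Tip60/tyf, Zasp52/tun, CG15701/CG15706, CG34309/CG9813, CG15237/SdhB, CG18135/CG3808, CG2889/nocte, CG33303/rho-5, CG7974/RpL23A, CycG/Med and drk/mars.

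Among nested loci of 2 genes, the strand of the host could be read from its own peaks at 32, which are named with the strand results, and could not at 56. With the inner gene first, these 56 included VAChT in ChAT, Ilp6 in Raf, Arr2 in Pex7, Mf in Gyc88E, Aldh in Shawl, Mlp84B in Alh, Adar in prage, bnb in S6KL, pkm in nod, emc in hng3 and CG45086 in Galphaq. Further ones were NP15.6 in GatA, UQCR-14 in CG32576, Rac2 in CG42458, Gyc76C in CG42637, Fim in CG5445, fray in CG7694, Hex-C in CG8079, aos in CG33158, Nmda1 in AspRS, Su(Tpl) in Mi-2, Tret1-1 in Roc2, Nna1 in Nadsyn and Vajk2 in Ance-3. Rbcn-3B lay in mip130, 2mit in timeout, cbt in ush, Eglp4 in Eglp2, Gtpx in Strip, be in hiw, CheB42c in mim, fok in neb, Pfrx in CG14200, CG8229 in CG33199, CG9676 in CG4678, CG44403 in CG10936, CG30197 in Cpr51A and CG3088 in Tmc. Genes known by number also lay in Lar (CG46244), ktub (CG9394), Tat (CG46317), Hr3 (CG12912), Usp10 (CG13907), GC (CG13928), Sesn (CG46429), Trl (CG42507), eIF5 (CG46312), lama (CG46456) and sbr (CG15209). The last were in Dus1 (CG17075), Nhe2 (CG46307), ChT (CG46318), Npl4 (CG5079), Lipt1 (CG42837), CG6191 (CG45088) and CG33223 (CG12116).

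A few loci held many of the peaks. The Ank2 locus on chromosome 3L had 43, 51 and 21 peaks in replicates 1, 2 and 3, which is 3.59%, 9.14% and 3.83% of the members of those lists. Ank2 codes for an ankyrin, which ties membrane proteins to the spectrin skeleton of axons and synapses, and its span (7655389 to 7718395) lies inside that of CG32373. All 115 peaks lay on the minus strand. Without this locus the share of peaks in overlapping genes was 7.70%, against 8.11% with it. Pif1A and Pif1B, which share a span on chromosome 3R, had 39, 9 and 15 peaks, all on the minus strand. CG46320 and sif on chromosome 3L had 31, 9 and 5 peaks, all on the plus strand, and sif codes for an exchange factor that activates Rac at synapses. CG46315 and CG6424 had 21, 14 and 9 peaks, all on the minus strand. At Ank2 the most peaks were in replicate 2, while at the other 3 loci replicate 1 held the most, as it did in the whole lists.

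**Figure D2:**
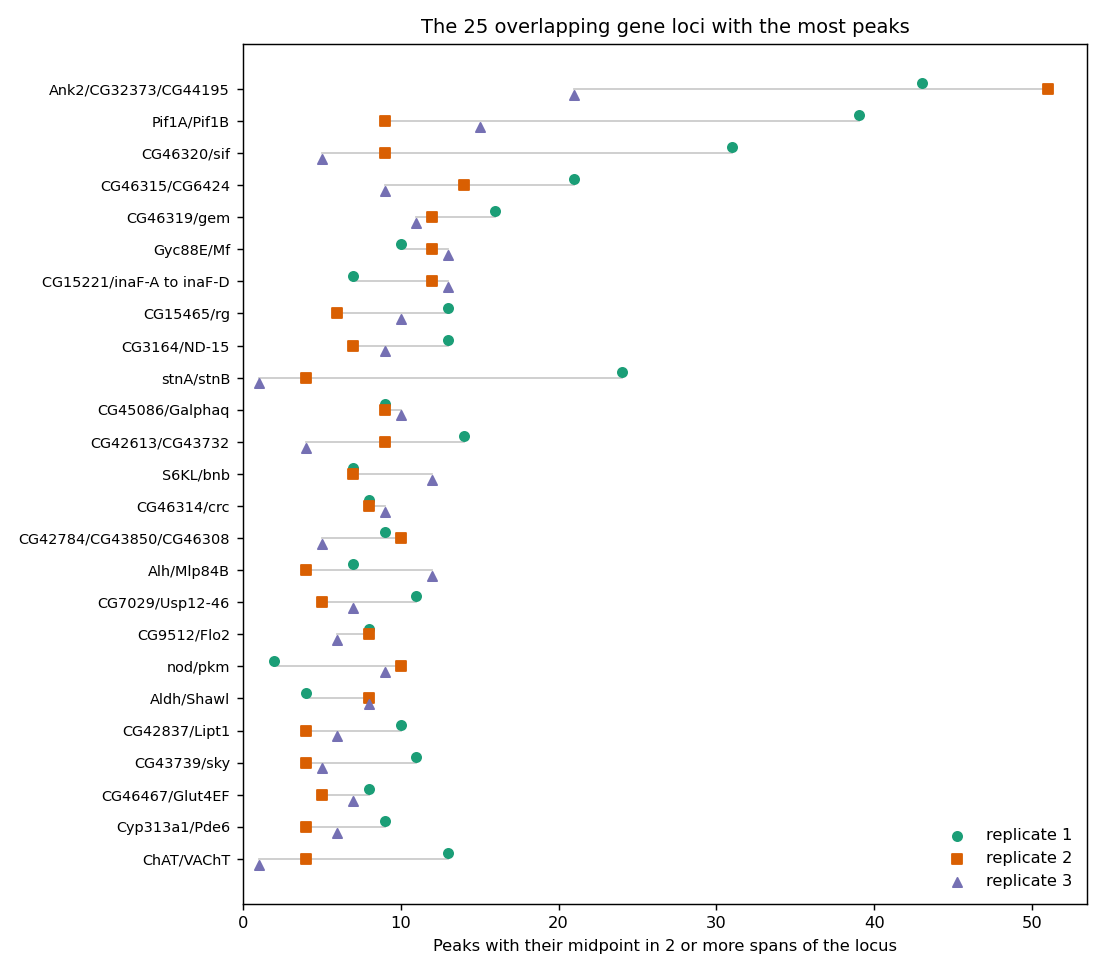
Number of peaks in each list (horizontal axis) at the 25 loci with the most peaks over the 3 lists (vertical axis, most at the top). Each symbol is 1 replicate and the line joins the lowest and highest count. Ank2 with CG32373 and CG44195 reaches 51 peaks in replicate 2, and stnA/stnB has 24 peaks in replicate 1 and 1 in replicate 3.

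The strand of the peaks pointed to 1 direction of reading at most pairs. Of the 180 pairs, 96 had peaks on the minus strand alone and 70 on the plus strand alone, while 14 had peaks on both strands. The 14 were Alh/Mlp84B (2 plus and 21 minus peaks over the lists), CG7029/Usp12-46 (17 and 6), CG43954/Lasp (5 and 9), Adar/prage (8 and 3), CG8036/p (2 and 6), jvl/smp-30 (6 and 2), Lpin/kermit (1 and 3), CG15465/rg, stnA/stnB, CG46244/Lar, solo/vas, CG42507/Trl, CG9967/eys and Trf2/lawc. Adar codes for the enzyme that edits adenosine to inosine in double-stranded RNA.

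In nested pairs, the peak strand could be set against that of the host gene. The host is the gene with the longer span, and its strand is that of its peaks outside other spans. Of 689, 334 and 353 nested peaks in exactly 2 spans, the host strand was known for 301, 141 and 133. Against it lay 108, 44 and 51 peaks in replicates 1, 2 and 3, which is 35.9% (Wilson interval 30.7 to 41.4%), 31.2% (24.1 to 39.3%) and 38.3% (30.5 to 46.8%), a mean of 35.1% ± 3.63 (SD, n = 3). With it lay 193, 97 and 82 peaks. In genes with a strand call, 0.25%, 0.956% and 0.485% of single-gene peaks lay on the other strand, a share that the 90% rule itself holds low. A peak on the host's strand may belong to either gene where both are read the same way.

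Peaks against the host strand had a lower CLIP to input ratio than peaks with it. The median log2 ratio was −0.30, 0.49 and −1 against the host strand in replicates 1, 2 and 3, and 0.23, 2.1 and 0.63 with it. The difference was −1.26 ± 0.63 (SD, n = 3) and negative in 3 of 3 lists (exact two-sided sign-flip permutation p = 0.25, adjusted 0.375). This comparison was added after values of these lists had been seen. Its larger part lay in the input, with medians of 13.2, 23.5 and 17 input reads per bin against the host strand and 8.05, 8.65 and 7 with it. Median CLIP reads per bin were 11, 31.8 and 9 against the host strand and 9.5, 41 and 11.3 with it. Called peaks had at least 7, 25 and 7 CLIP reads per bin, a floor that bounds the CLIP side of this comparison. Input was higher against the host strand in each list, while CLIP reads were higher in replicate 1 alone. The difference was −0.80 where the whole peak had to lie in both spans and −0.78 in peaks of 1 bin. Recurrent peaks were 23.1%, 56.8% and 54.9% against the host strand and 23.3%, 52.6% and 73.2% with it, and the order differed between lists (exact permutation p = 0.75, adjusted 0.844).

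**Figure D3:**
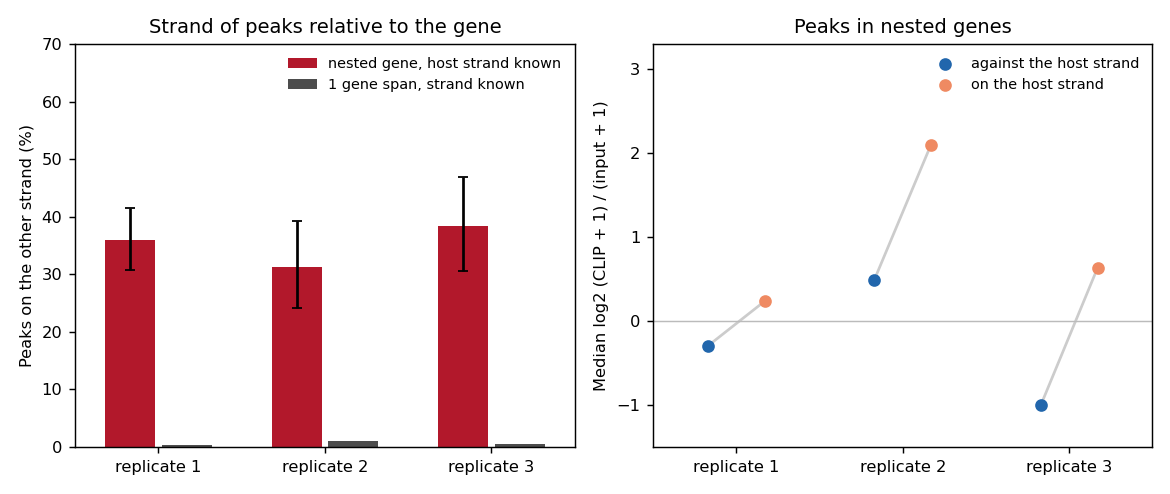
Left, percent of peaks on the strand opposite to the gene's own in each list, for peaks in nested genes whose host has a known strand (red, with 95% Wilson intervals) and for peaks in 1 gene span (grey). Right, median log2 CLIP to input ratio of nested peaks against (blue) and on (orange) the host strand, joined within each replicate. The red bars reach 35.9%, 31.2% and 38.3%, and each blue point lies below its orange partner.

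Named pairs fell almost wholly on one side. Of 43 nested pairs that were in all 3 lists and had a host strand, 15 had every peak against the host, 25 had every peak with it and 3 were mixed. The inner gene had no strand call of its own at any of these pairs. Peaks against the host are thus off the host's strand, and giving them to the inner gene is an inference from position. The Ank2, Adh and inaF pairs have no host strand and are not among them. The pairs against the host included Cyp313a1, a cytochrome P450, in Pde6, a phosphodiesterase on chromosome 3R. Here 9, 4 and 6 peaks lay on the plus strand inside Cyp313a1, while all 5 peaks of Pde6 outside it lay on the minus strand. Idgf6, a secreted growth factor of the chitinase family, had 7, 4 and 6 peaks against Pgant9, a sugar transferase. The gene aay, a phosphoserine phosphatase, had 4, 2 and 8 peaks against Atat, a tubulin acetyltransferase. CG3164 had 13, 7 and 9 peaks against ND-15, a subunit of respiratory complex I. CG9512 had 8, 8 and 6 peaks against the flotillin gene Flo2. These 5 pairs were taken from the 15 with every peak against the host.

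The others against the host were CG8329 in fry, CG15293 in CG46301, CG42486, CG14933 and CG46426 in Pde1c, sxe2 in Mhcl, RpL41 in NaCP60E, sina in Rh4, stops in Gycbeta100B and eIF4G2 in CG34355. The 3 mixed pairs were Usp12-46 in CG7029, smp-30 in jvl and kermit in Lpin, where 6 of 23, 2 of 8 and 1 of 4 peaks lay against the host.

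With the host strand lay all peaks of Syx1A in eIF4EHP, mlt in KCNQ, rho in Ptp61F, usp in Actn, Ip259 in RpS27A, mei-W68 in par-1, ntc in CG32264 and nop5 in x16. The same held for the numbered genes in sif, crc, Glut4EF, PRL-1, jp, drn, RhoGDI, unc-104, Nca, heph and CG42613, for CG43850 and CG46308 in CG42784, for CG45078 and fau in CG45076, and for CG12158 and CG13739 in CG13954. In unc-104, which codes for the kinesin that carries synaptic vesicle precursors, 2, 2 and 3 minus-strand peaks lay in the span of CG42392. The gene unc-104 alone had 42 peaks on that strand. In par-1, which codes for a polarity kinase, 2, 3 and 3 plus-strand peaks lay in the span of mei-W68. Of 27 peaks of par-1 alone, 26 were on that strand. The peaks in these 2 inner spans may belong to either gene.

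At nested pairs in all 3 lists, peaks per kb were mostly higher in the inner span than in the host's own part. At 104 of the 118 nested pairs in all 3 lists the host had at least 1 kb to itself, and the inner span had more peaks per kb than that part at 95 of them. The pairs were chosen for a peak in the inner span in every list, while the host's own part needed none. That choice favours the inner span, and its part in the difference was not tested. At 36 of the 104 pairs the host had no peak outside other spans. The median was 2.40 peaks per kb in inner spans over the 3 lists and 0.0931 in the host's own part. Mf, a gene of the muscle thick filament, had 35 peaks in its 10.886 kb and Gyc88E, a guanylyl cyclase, had 0 in its own 29.797 kb. NP15.6, a subunit of respiratory complex I, had 11 peaks in 0.648 kb and GatA had 0 in its own 2.006 kb. In the other direction, usp had 3 peaks in 3.514 kb, while Actn, which codes for alpha-actinin, had 24 peaks in its own 14.15 kb.

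Both genes had a strand call at few places. Over the lists these places held 15, 2 and 2 peaks, all in genes read in opposite directions. On the strand of the longer gene lay 7 of 15, 1 of 2 and 1 of 2 of them, a mean of 48.9%. With 2 peaks in a list the share can only be 0, 50 or 100%, so its spread over the lists carries no information. Leaving out 1 list at a time, which also changes the strand calls, gave 0 to 38.6%.

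Nested couples from fly textbooks show what the strand can and cannot separate. VAChT and ChAT, the vesicular carrier and the synthetic enzyme of acetylcholine, start at the same base on chromosome 3R and are read the same way. Their 13, 4 and 1 peaks all lay on the plus strand, and ChAT had 0 peaks in the part of its span that no other gene shares. One region near the shared start, 3R:18705651-18705750, was called in all 3 lists, with 19.2, 54 and 9 CLIP reads per bin and 9.94, 5.48 and 5.92 input reads. Syx1A, the syntaxin of synaptic vesicle fusion, had 7, 6 and 5 peaks in eIF4EHP, a repressor of translation, all on the minus strand like eIF4EHP's own. Its 5 shared regions held 11.3 to 24 CLIP reads per bin in replicate 3 and 44.7 to 123 in replicate 2, and the ratio of each was above the median of its list in all 3 lists. At both loci the strand leaves 2 candidate genes.

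At Rh4 and sina the strand set the inner peaks apart from the host's own. The gene sina had 0 peaks outside other spans and so no strand call. Rh4 codes for an ultraviolet rhodopsin of the R7 photoreceptor and sina for a ubiquitin ligase that this cell needs to form, and sina lies in Rh4 on chromosome 3L. The 3, 2 and 1 peaks in sina were on the plus strand, and the 3, 2 and 7 peaks of Rh4 alone were on the minus strand. The sina peaks had 7 to 11 CLIP reads per bin in replicate 1, 26 and 29.5 in replicate 2 and 7 in replicate 3. No base of sina was called in all 3 lists. KCNQ, a potassium channel, and mlt inside it had 10, 4 and 1 peaks, all on the minus strand, and 1 region in all 3 lists with 18, 35 and 8 CLIP reads per bin and 19, 16 and 14 input reads.

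**Figure D4:**
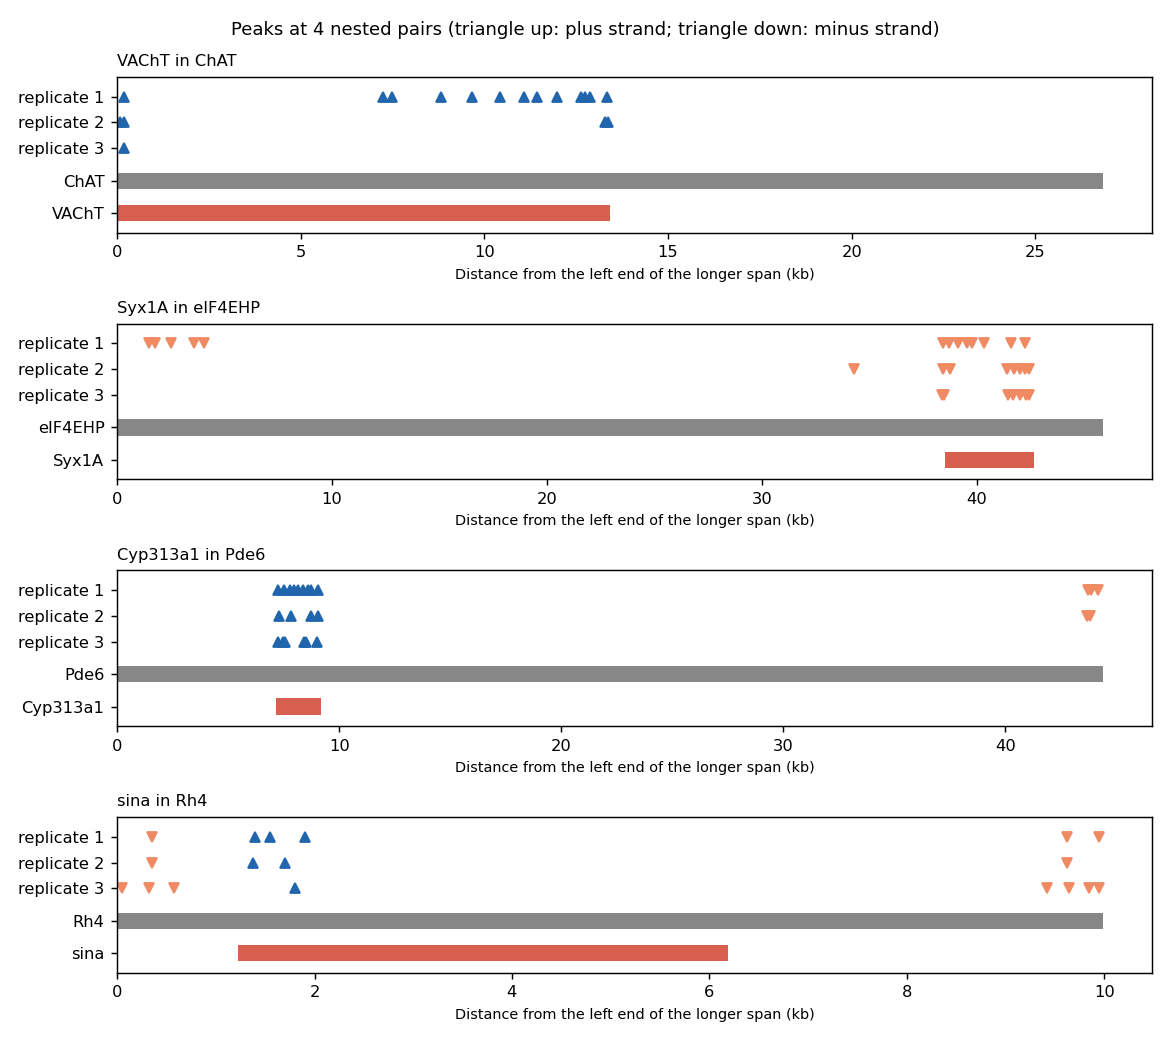
Peaks at VAChT in ChAT, Syx1A in eIF4EHP, Cyp313a1 in Pde6 and sina in Rh4, by distance in kb from the left end of the longer span, with 1 row per replicate and both spans below. Blue triangles pointing up are plus-strand peaks and orange triangles pointing down are minus-strand peaks. In Pde6 and Rh4 the inner peaks are on the strand opposite to the host's own, and in ChAT and eIF4EHP all peaks are on 1 strand.

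Members of the chosen gene lists had overlap peaks in varying numbers. Of all 5762 protein-coding genes that overlap another, 14.4% had an overlap peak in any list and 5.31% in all 3, and each list's counts stand beside those shares. Of 27 insulin pathway genes 12 overlap another gene, and 3 had a peak there in any list. Ilp6, an insulin-like peptide of the fat body that lies in the kinase gene Raf, was the one with peaks in all 3 lists, with 5, 2 and 1 peaks on the minus strand. Ilp2 and ImpL2 had 1 overlap peak each, in replicate 1. Of 10 m6A machinery genes 4 overlap another gene, and vir, a subunit of the methyltransferase complex, had 1 peak, in replicate 1. Among 54 synapse, channel and clock genes that have an annotated span, 20 overlap another gene, 6 had an overlap peak in any list, and Syx1A and KCNQ had them in all 3. Among 22 genes from textbook nested or overlapping pairs, 20 overlap by the annotation, 13 had an overlap peak in any list and 11 in all 3. That list was put together from known nested pairs with results of these data in view, and the lists are short, so nothing particular to them is read from the counts. The couple stnA and stnB, proteins of synaptic vesicle recycling made from 1 messenger, had 24, 4 and 1 peaks, and no base was shared by all 3 lists.

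Regions called in all 3 lists within overlapping spans numbered 330 and covered 34100 bp. The ratio was above the median of its list (0.17, 1.58 and −0.42 over all peaks of replicates 1, 2 and 3) in all 3 lists for 132 of them, or 40.0% (Wilson interval 34.9 to 45.4%). It was below the median in all 3 lists for 147, or 44.5% (39.3 to 49.9%). Among 3650 single-gene regions the shares were 47.0% above (45.4 to 48.7%) and 40.8% below (39.2 to 42.4%). Regions of one gene share its messenger and are not independent. Where a peak was several bins wide, each region inside it takes the value of the whole peak.

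The 8 regions named for the highest ratios had few input reads, which a choice by ratio itself favours, as input is its denominator. On the minus strand of chromosome 2R, CG45088 and CG6191 had a region with 47.5, 115 and 18 CLIP reads per bin and 1.73, 3.46 and 4.47 input reads, which gives 3.55 ± 1.54 (SD, n = 3) on the log2 scale. Reads are not scaled to depth, so the SD of a ratio over the lists can hold differences between lists that touch all peaks, whose medians ran from −0.42 to 1.58. In rg, whose product anchors a kinase and acts at synapses, the region X:5089851-5090000 had 41, 113 and 38.7 CLIP reads and 4.51, 3.92 and 3.48 input reads, a ratio of 3.54 ± 0.87. CG9967 and eys, a secreted protein that opens the space between rhabdomeres in the eye, shared 2L:2311801-2312050 on the plus strand. It had 61, 159 and 46.4 CLIP reads and 7.61, 6.47 and 4.92 input reads, a ratio of 3.42 ± 0.86. In each of these 3 regions, picked for a high ratio, the CLIP reads were far above the input reads in every list.

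Next came Hyls1 and chif, a regulator of the start of DNA replication. Their region had 25, 88 and 26 CLIP reads and 1.73, 6 and 2 input reads, a ratio of 3.36 ± 0.27. The gene ras, which codes for the enzyme of the first step to guanine nucleotides, overlaps stx and had 56, 100 and 24.5 CLIP reads and 4.02, 5.50 and 3.72 input reads. That region also lies on an annotated non-coding gene. Nadsyn, an enzyme of NAD synthesis, and Nna1 had 39.7, 77 and 26 CLIP reads and 3.63, 3.87 and 3.16 input reads. CG9674 and nudC had 38.7, 221 and 29 CLIP reads and 4.16, 8 and 6 input reads. In sky, a regulator of synaptic vesicle turnover, and CG43739 there were 52.4, 113 and 17.4 CLIP reads and 3.25, 5.91 and 3.73 input reads. The mean log2 ratio was 3.28 ± 0.66 at Nadsyn and Nna1, 3.22 ± 1.29 at CG9674 and nudC and 3.22 ± 1.11 at sky.

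**Figure D5:**
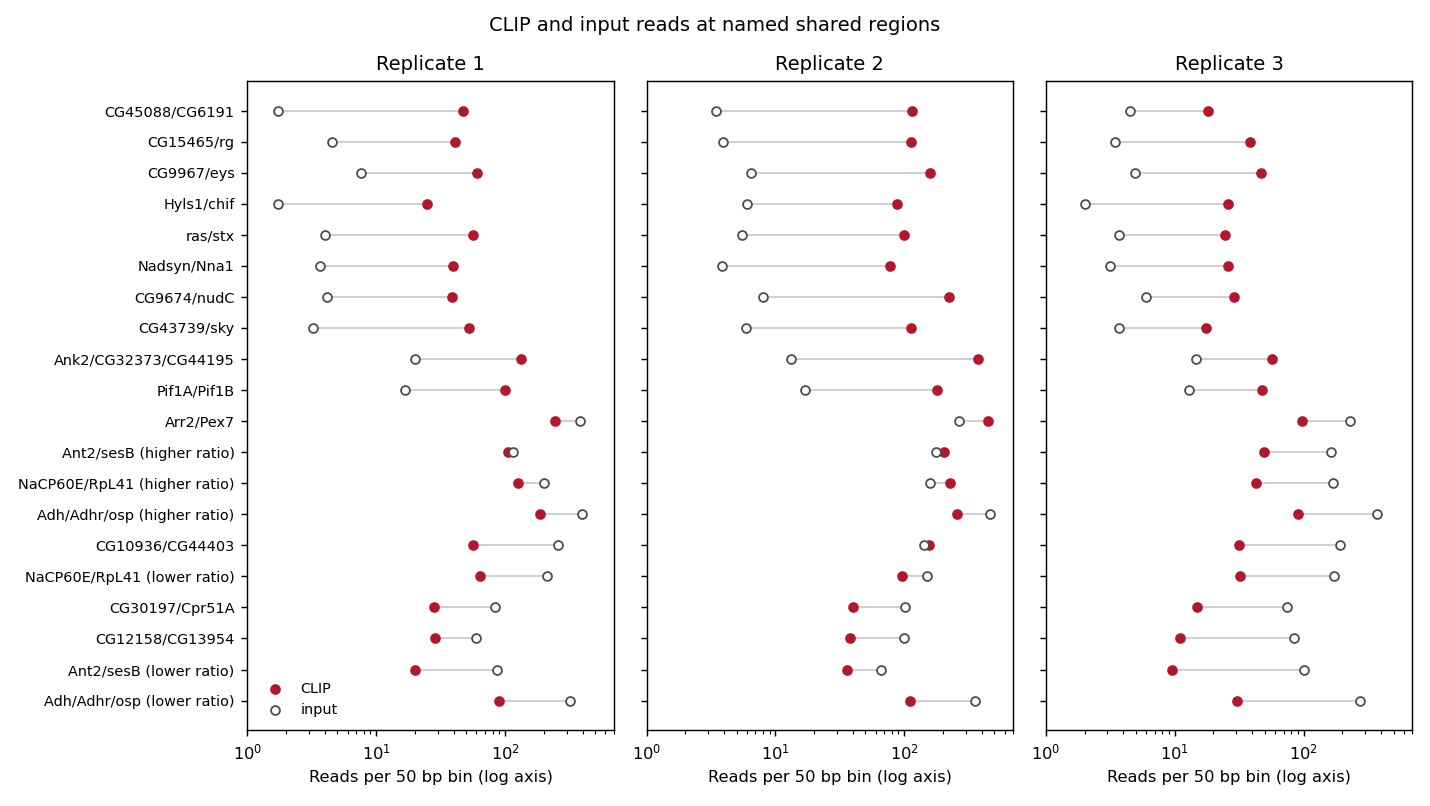
CLIP reads (red) and input reads (open circles) per 50 bp bin on log axes at 20 named shared regions, 1 panel per replicate, with the highest mean log2 ratio at the top of the first 8 rows. Lines join the values of a region. CLIP lies right of input in all 3 panels down to Pif1A/Pif1B, and input lies right of CLIP in replicates 1 and 3 from Arr2/Pex7 down.

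Regions with many CLIP reads had both high and low ratios. Taking 1 region per locus, the first by mean rank of CLIP reads in the lists was 3L:8647701-8647900 on the minus strand, in Arr2 and Pex7. Arr2 codes for the arrestin that shuts off rhodopsin in photoreceptors and Pex7 for a peroxisomal import receptor. It had 243, 447 and 97.5 CLIP reads per bin and 381, 268 and 227 input reads, and its log2 ratio of −0.38 ± 1.00 was below the list median in each list. The span of Adh, alcohol dehydrogenase, with Adhr in osp was the next locus, at 2L:14616501-14616900, with 187, 257 and 89.9 CLIP reads and 393, 460 and 372 input reads. Another Adh region, 2L:14615551-14615650, had the lowest ratio of all named regions, −2.19 ± 0.81, with 90.5, 111 and 30.5 CLIP reads and 318, 351 and 275 input reads.

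Ank2 and Pif1A/Pif1B combined many CLIP reads with a ratio above the median. The best Ank2 region, 3L:7695351-7695550, had 133, 371 and 57 CLIP reads and 20.2, 13.2 and 14.7 input reads, a ratio of 3.09 ± 1.46. Within the same locus the median peak had 10, 31.2 and 8 CLIP reads and 25.0, 17 and 16 input reads, so this region stands far above its neighbours. The Pif1A/Pif1B region 3R:8799451-8799850 had 101, 178 and 48 CLIP reads and 16.7, 16.9 and 12.9 input reads, a ratio of 2.55 ± 0.75.

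RpL41, a ribosomal protein gene of 520 bp inside the sodium channel gene NaCP60E on chromosome 2R, had 3, 2 and 2 peaks on the minus strand, and all 13 peaks of NaCP60E alone were on the plus strand. Its stronger region had 125, 226 and 42.8 CLIP reads and 199, 159 and 168 input reads, a ratio of −0.71 ± 1.23. Its other region had 63.5, 96.5 and 32 CLIP reads and 210, 149 and 172 input reads, a ratio of −1.57 ± 0.89. The partly overlapping Ant2 and sesB code for the carriers that exchange ADP and ATP across the inner mitochondrial membrane. Their widest region, X:10781001-10782050, had 105, 202 and 49.8 CLIP reads and 116, 175 and 163 input reads. Another, X:10786801-10786850, had 20, 36 and 9.5 CLIP reads and 86.5, 66 and 101 input reads, a ratio of −2.07 ± 1.22.

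The other loci named for a low ratio, with 1 region each, were these. CG10936 and CG44403 had 56.3, 156 and 31.7 CLIP reads and 256, 143 and 193 input reads in a region that also lies on an annotated non-coding gene, a ratio of −1.54 ± 1.45. CG30197 and Cpr51A, a cuticle protein gene, had 28, 40 and 15 CLIP reads and 84, 101 and 75 input reads, a ratio of −1.70 ± 0.49. CG12158 and CG13954 had 28.7, 38 and 11 CLIP reads and 59.4, 100 and 85 input reads, a ratio of −1.75 ± 0.96. The last 2 had fewer CLIP than input reads in every list, while CG10936 and CG44403 had more in replicate 2. Peaks were called by the authors, and the reads are not scaled to depth. Why some called peaks have fewer CLIP than input reads as deposited was not tested.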

How the data were processed

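Each of the 3 deposited peak lists joins the m6A-CLIP and the input library of 1 replicate number. The labels call the libraries of a replicate number biological replicates of about 800 heads. Per the submitters' processing notes, STAR 2.7.5a was used and the builds are dm6 and BDGP6; the peak caller, its thresholds and library totals are not given in the sources used here. The deposited signal of a peak is its mean CLIP reads per 50 bp bin, not scaled to depth. That reading comes from the values, as products of signal and bins were within 0.01 of a whole number in 99.3% to 100.0% of wider peaks. The authors also give the natural log of the input reads, averaged over bins, and whether 1 was added first is not known. Its exponential was used as input reads, which in wider peaks is a geometric mean and lowers input against CLIP. The p-value of each peak, as deposited by the authors, served to rank peaks.

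Peaks were given to spans of 13922 protein-coding genes of the RefSeq Release 6 table on 6 arms by their midpoint, with Python 3.11.15, pandas 2.3.3 and scipy 1.17.1. Coordinates are 1-based. The table holds no strand, exon or sequence, so none is printed. Medians of the classes were subtracted within each list, and the 3 differences went into an exact two-sided sign-flip permutation test, with Benjamini-Hochberg adjustment over 9 comparisons. The list is thus a replicate block, since both classes come from the same libraries. The steps were tested on simulated data. Regions with values, 1 per locus in each group, are the 8 with the best mean CLIP rank and the 8 highest and 6 lowest mean ratios, and pairs with values also include the 6 with the most peaks and all with a gene of 4 gene lists. Members, lists and comparisons were chosen with earlier results of these data known. Alternatives covered the peak threshold, membership rule, non-coding genes, pseudocount, peak width, overlap rule, replicate block and leaving out each list.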

Additional observations from a re-analysis of the deposited data

How the results depend on the processing

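None of the recomputed mean class differences changed sign, and 1 became 0. The share of peaks in overlapping genes, 8.11% as reported, was 7.56% when each list was reduced to the 50% of peaks ranked best by p-value, 7.75% with the whole peak in both spans, 8.54% without peaks on non-coding genes, 7.70% without the Ank2 locus, and 7.99 to 8.31% without 1 list at a time. The gene pairs in all 3 lists numbered 86 in the 50% with the lowest p-values and 138 from peaks in exactly 2 spans. They numbered 196 to 219 when 1 list was left out and 2 were required. A shared region had its midpoint in both spans at 170 pairs, of which 162 were among the 180 reported. The difference in CLIP reads was 0 in 1-bin peaks, and called peaks had a floor of 7, 25 and 7 CLIP reads per bin. The share on the strand of the longer gene was 14.3% without non-coding genes and 0 to 38.6% without 1 list at a time; it gave no value in the 50% with the lowest p-values, and taking gene strand from peaks alone is the reported rule, as the table has no strand.

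Over their alternatives, the log2 ratio difference ran from −0.46 to −0.21, the log2 CLIP difference from −0.13 to 0, the log2 input difference from 0.05 to 0.36, the recurrence difference from −4.95 to −0.31 points and the ratio difference against the host strand from −1.70 to −0.78. Without 1 list at a time the differences were −0.46 to −0.28 in ratio, −0.13 to −0.06 in CLIP, 0.23 to 0.36 in input, −3.60 to −0.31 points in recurrence and −1.65 to −1.06 against the host strand. With no replicate block, exact permutation p was 0.6 for the ratio (−0.36), 0.7 for CLIP, 0.3 for input, 0.7 for recurrence and 0.2 against the host strand, against 0.25 or more with the replicate block. Leaving out Ank2, counting each gene set once and taking host strands from 5 peaks were chosen after seeing the data. With 3 lists no exact sign-flip permutation test can give a p below 0.25. Library totals were not analysed here, so the depth behind each list is unknown.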

Other observations

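Among the 330 shared regions, 1 had the widest spread of its ratio over the lists. At f-cup and ninaB on chromosome 3R, the single peak of each list had 63, 271 and 14 CLIP reads per bin and 350, 91 and 178 input reads in replicates 1, 2 and 3, a log2 ratio of −2.46, 1.56 and −3.58. The gene ninaB codes for the enzyme that cleaves carotenoids to make the rhodopsin chromophore. The region was chosen after its values were seen.

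The inaF genes, which code for small partner proteins of the TRP channel of photoreceptors, lie on chromosome X with CG15221 in up to 5 overlapping spans. Their 7, 12 and 13 peaks were all on the minus strand, and 9 regions were called in all 3 lists. Their median CLIP reads per bin were 15, 41.1 and 9, with 34.3, 30.8 and 28 input reads.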
